A study of Homo sapiens with 4 samples.

Results

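The subject is the glycolytic enzyme genes GPI, ALDOA, GAPDH, PGK1, ENO1 and LDHA, taken as every probe whose listed gene symbol is 1 of these 6. The rule found 12 probes of 15246, and all 12 had a value on all 4 arrays. ENO1 had 4 probes, GAPDH, PGK1 and LDHA had 2 each, and GPI and ALDOA had 1 each. The cells were OCI-Ly3, an established line from a human B-cell lymphoma of the diffuse large-cell kind, carrying a hairpin against IKKa, the kinase encoded by CHUK. Each of the 4 arrays set cells with the hairpin induced by doxycycline at 20 ng/ml (Cy5) against cells given no doxycycline (Cy3). With inhibitor there were 2 arrays, in which both channels also received 12.5 uM MLN120b, a blocker of the sister kinase IKKb: 3 days of induction went with 24 h of MLN120b, and 2 days with 3 h. Without inhibitor there were again 2 arrays, after 3 or 2 days of induction, with an untreated Cy3 channel. No array had cells given doxycycline without the hairpin, so an effect of doxycycline and an effect of the hairpin cannot be told apart, and no array had its dyes swapped, so in ratios against 0 induction cannot be told apart from a steady dye preference of a probe either.

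Glycolysis splits glucose into pyruvate in the cytosol, with a net yield of ATP and NADH, and proliferating lymphoid cells use it heavily. GPI turns glucose 6-phosphate into fructose 6-phosphate, and ALDOA splits fructose 1,6-bisphosphate into triose phosphates. GAPDH and PGK1 carry out the oxidation and the first ATP-forming step, ENO1 makes phosphoenolpyruvate, and LDHA reduces pyruvate to lactate and so restores NAD. The transcription factors MYC and HIF-1 are known activators of many of these genes, and GAPDH, PGK1 and ALDOA are often used as reference genes in expression work.

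Values are log2 ratios of cells given doxycycline over cells given none, the likely direction of the deposited ratios, which the file does not state. Red over green is the common order for such ratios, and read so the hairpin target CHUK lay below 0 on all 4 arrays (-1.01 and -1.30 with inhibitor at 3 and 2 days, -0.87 and -0.59 without it). With the opposite direction every sign here would turn. A log ratio holds no expression level, so the identity of the cells could not be checked against levels of B cell markers. The ratios of the 4 measured B cell markers, of 5 listed, had a median mean of -0.01, those of 5 T cell markers 0.15 and those of 3 myeloid markers 0.01, and none of these was called. A gene's value is the mean of its probes, and 3589 genes had a value on all 4 arrays. The median absolute deviation of log ratios over genes was 0.26 at 3 days and 0.17 at 2 days with inhibitor. Without it the values were 0.18 at 3 days and 0.11 at 2 days. Ratios were thus more widely spread on the 3-day arrays, and at each day with inhibitor, for genes in general.

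All 6 glycolytic genes had mean log2 ratios below 0 over the 4 arrays, from 1.79-fold lower for ENO1 to 1.11-fold lower for LDHA. All 6 were lower at 3 than at 2 days at both inhibitor statuses, as were 43.2% of all genes. GPI, the enzyme of the second step, had log2 ratios of -0.94 at 3 days and -0.42 at 2 days with inhibitor, and of -0.67 at 3 days and -0.47 at 2 days without it. ALDOA, the aldolase, had -0.88 at 3 days and -0.48 at 2 days with inhibitor, and -0.73 at 3 days and -0.36 at 2 days without it. For both genes the array with 24 h of inhibitor was the lowest. Both 3-day arrays lay below both 2-day arrays, so the arrays with and without inhibitor had to overlap.

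GAPDH, the dehydrogenase that yields NADH, had log2 ratios of -0.55 at 3 days and -0.22 at 2 days with inhibitor, and of -0.65 at 3 days and -0.20 at 2 days without it. PGK1, the next enzyme, had -0.66 at 3 days and -0.22 at 2 days with inhibitor, and -0.59 at 3 days and -0.28 at 2 days without it. Both genes were lower on the 3-day arrays than on the 2-day arrays, so the inhibitor statuses had to overlap.

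ENO1, the enolase, had log2 ratios of -1.18 at 3 days and -0.46 at 2 days with inhibitor, and of -1.17 at 3 days and -0.55 at 2 days without it. On the 3-day arrays that is 2.27-fold with inhibitor and 2.25-fold without it, both lower. LDHA, the lactate dehydrogenase subunit, had -0.28 at 3 days and 0.04 at 2 days with inhibitor, and -0.24 at 3 days and -0.12 at 2 days without it. ENO1 was the lowest of the 6 on 3 of the 4 arrays, all but the array with 3 h of inhibitor, where ALDOA was lower at -0.48. LDHA was the highest on all 4 arrays and the only one of the 6 with a value above 0. In bulk RNA, fewer cells expressing a gene and less RNA per cell cannot be told apart.

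**Figure D1:**
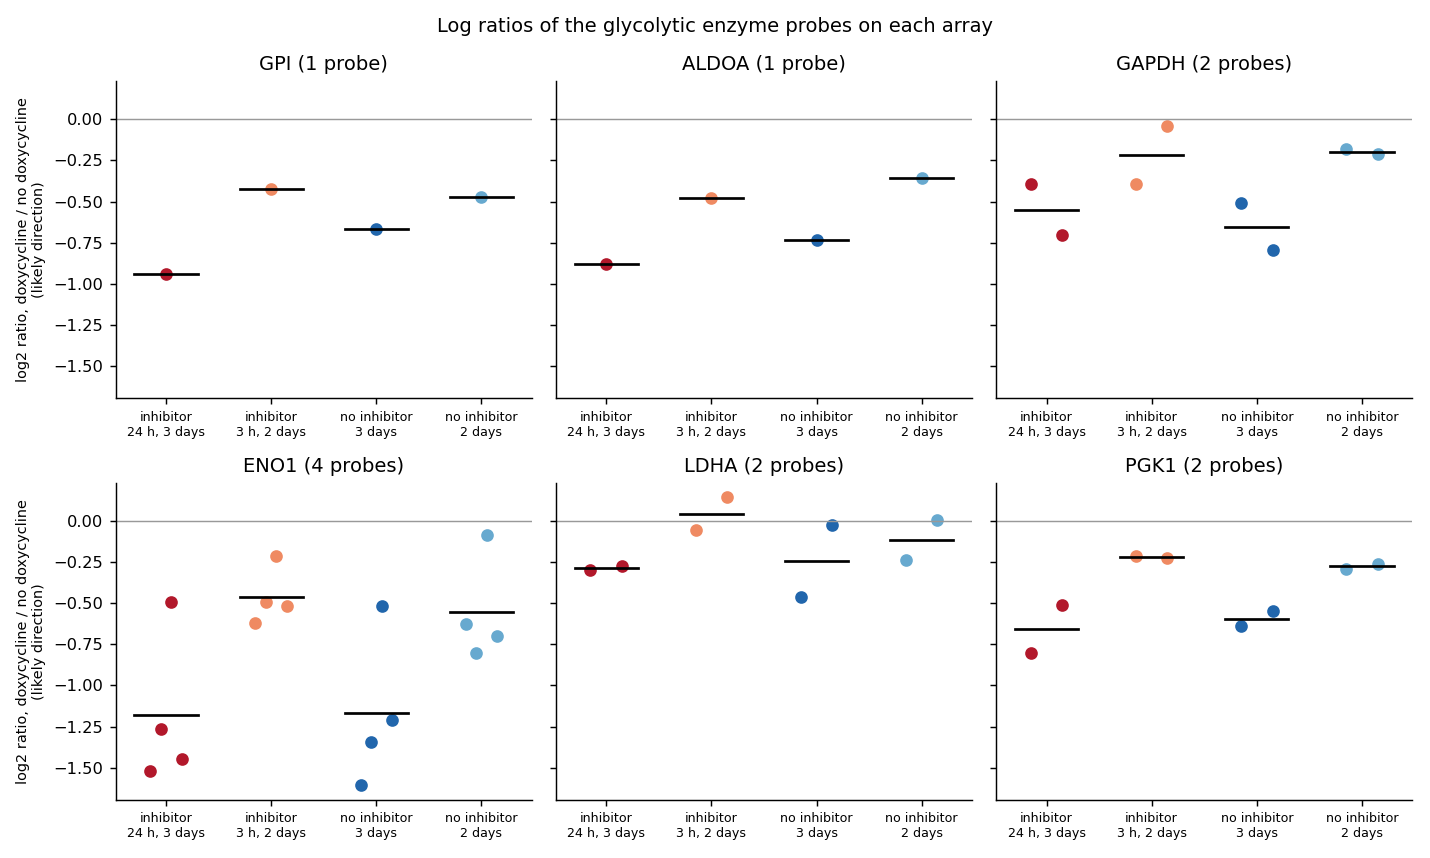
Log2 ratios of doxycycline over no doxycycline (y axis) on the 4 arrays (x axis) for each gene; points are single probes and black lines are the gene means. The gene means of the 3-day arrays lie below those of the 2-day arrays in each panel, and 1 of the 4 ENO1 probes lies above the other ENO1 probes on every array.

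Sequence before the start of transcription is shown for ENO1, which had the lowest mean ratio, LDHA, which had the highest, and PGK1, which lay between them, because known activators of glycolytic genes bind short cores in such regions. Each is the 250 bases before the outer start of the gene, 5′ to 3′ on the gene's strand, from RefSeq on GRCh38.p14. Capitals mark the hypoxia response core ACGTG, bound by HIF-1, on either strand; the E-box CACGTG, bound by MYC, holds that core on both strands.
ENO1 (chr1:8878687-8878936, minus strand): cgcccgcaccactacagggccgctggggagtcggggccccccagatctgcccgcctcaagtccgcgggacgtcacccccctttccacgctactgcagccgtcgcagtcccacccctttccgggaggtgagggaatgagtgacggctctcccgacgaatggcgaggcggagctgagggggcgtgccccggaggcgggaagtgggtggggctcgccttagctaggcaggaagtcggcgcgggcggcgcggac
LDHA (chr11:18394313-18394562, plus strand): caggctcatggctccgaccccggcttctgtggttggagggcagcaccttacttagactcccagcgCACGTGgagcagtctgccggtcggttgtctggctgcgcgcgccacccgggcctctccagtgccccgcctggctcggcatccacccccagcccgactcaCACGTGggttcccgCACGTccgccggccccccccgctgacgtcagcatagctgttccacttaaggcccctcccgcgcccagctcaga
PGK1 (chrX:78103998-78104247, plus strand): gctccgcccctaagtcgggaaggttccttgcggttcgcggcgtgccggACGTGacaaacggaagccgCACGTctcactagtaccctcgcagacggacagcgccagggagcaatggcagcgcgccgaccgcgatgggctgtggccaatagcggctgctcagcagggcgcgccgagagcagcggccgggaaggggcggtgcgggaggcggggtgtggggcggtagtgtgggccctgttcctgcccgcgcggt
The LDHA window held 3 stretches with the core, 2 of them E-boxes, the PGK1 window held 2 stretches and no E-box, and the ENO1 window held none. Over all 9 listed starts of the 6 genes, 5 genes had the core in at least 1 window, all but ENO1, beside 21.7% of 27305 genes, and 3 genes (LDHA, GAPDH and ALDOA) had an E-box, beside 7.73% of genes. The listed windows of GAPDH and GPI lie inside those genes, and ALDOA and LDHA have several starts. The 3 windows shown were picked by mean ratio, and whether cores go with ratios was not tested. GPI and ALDOA, with means of -0.62 and -0.61, also had the core. A match is a description of letters, not a site in use.

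Set against all 3589 genes of the same array, a rank that does not depend on how widely an array's ratios spread, ENO1 had 1.31% of genes below it at 3 days and 5.74% at 2 days with inhibitor, and 0.446% at 3 days and 1.67% at 2 days without it. GPI had between 2.37% and 7.22% of genes below it and ALDOA between 2.59% and 5.35% over the 4 arrays. The range was wider for PGK1, from 4.96% to 21.2%, and for GAPDH, from 3.62% to 21.2%. LDHA had 24.4% of genes below it at 3 days and 60.7% at 2 days with inhibitor, and 25.2% at 3 days and 27.6% at 2 days without it. By rank GPI, ALDOA and ENO1 thus stayed near the bottom on every array, and LDHA did not.

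**Figure D2:**
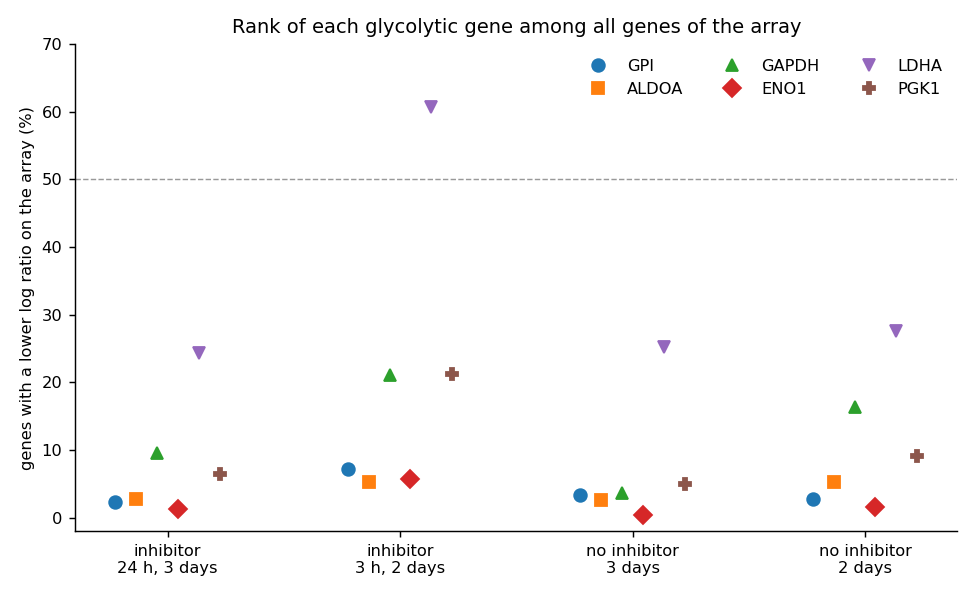
Share of genes with a lower log ratio than each glycolytic gene (y axis, %) on each array (x axis); the dashed line marks the middle of all genes. GPI, ALDOA and ENO1 stay under 7.22% on all 4 arrays, while LDHA reaches 60.7% on the array with 3 h of inhibitor.

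The average over all 4 arrays asks whether induction moved these genes regardless of inhibitor and day. In 1 limma fit over all genes, 4 of the 6 fell, each below 0 on 4 of 4 arrays. Their mean log2 ratios were -0.84 for ENO1 (SE 0.15, limma adjusted p = 0.0242), -0.62 for GPI (SE 0.11, 0.0228), -0.61 for ALDOA (SE 0.11, 0.024) and -0.44 for PGK1 (SE 0.11, 0.046). Across all genes 11.2% were called in this comparison in either direction and 8.47% as lower. GAPDH stood at -0.40 (SE 0.11, limma adjusted p = 0.0543), below 0 on 4 of 4 arrays, and LDHA at -0.15 (SE 0.09, limma adjusted p = 0.294), below 0 on 3 of 4. Genes below 0 on all 4 arrays made up 25.8% of all genes, and 5 of the 6 were among them. The median over the 6 genes was -0.52, beside -0.01 over all genes, and the 6 were chosen with earlier results of these data known. No member was called when either array without inhibitor was left out, which leaves 1 residual degree of freedom (for the 4 genes that fell, adjusted p from 0.054 for ENO1 to 0.0967 for PGK1 without the 2-day array, and from 0.192 for ENO1 to 0.301 for PGK1 without the 3-day array), and none was after centring each array on the other housekeeping genes. PGK1 alone lost its call after median centring (limma adjusted p = 0.0583) and with looser probe filtering (0.0558). PGK1 also lost it without the array with 24 h of inhibitor, where its value was -0.33. GAPDH was called after scaling the arrays to equal spread (limma adjusted p = 0.0229), among 638 genes in all. Pairing arrays of the same day also called GAPDH (0.0097), among 1121 genes and at 1 residual degree of freedom. The main fit called 401 genes. Without the array with 3 h of inhibitor GAPDH stood at -0.49, in a fit that took 1 spread for all genes.

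With inhibitor, which asks what induction did while IKKb was blocked, none of the 6 passed. ALDOA averaged -0.68 ± 0.29, GPI -0.68 ± 0.36 and ENO1 -0.82 ± 0.51 (SD, n = 2; limma adjusted p = 0.052, 0.052 and 0.0672). PGK1 averaged -0.44 ± 0.31, GAPDH -0.39 ± 0.23 and LDHA -0.12 ± 0.23 (SD, n = 2; limma adjusted p = 0.114, 0.158 and 0.565). Of all genes 4.57% were called here, 3.04% as lower. At an unadjusted p under 0.05 were 5 of the 6 members and 1014 of the 3589 genes. Without inhibitor the means were ENO1 -0.86 ± 0.43, GPI -0.57 ± 0.14, ALDOA -0.54 ± 0.27, PGK1 -0.43 ± 0.22, GAPDH -0.42 ± 0.32 and LDHA -0.18 ± 0.09 (SD, n = 2). The limma adjusted p-values ran from 0.246 for ENO1 to 0.654 for LDHA, with 5 of the 6 at an unadjusted p under 0.05. Here 0% of all genes were called and 400 had an unadjusted p under 0.05. Beyond 1.5-fold lower on both arrays of a group were 0 of the 6 members, against 2.4% of all genes with inhibitor and 0.919% without it. The SDs span 3 and 2 days of doxycycline, so they include any change with time. After scaling the arrays to equal spread, ENO1, GPI, ALDOA and PGK1 were called without inhibitor, among 191 genes in all, and ENO1, GPI and ALDOA with it, among 150. With the doxycycline day as a block, all but LDHA were called with inhibitor, among 908 genes, and ENO1 was called without it, among 56. Leaving out the array with 3 h of inhibitor gave 5 called members with inhibitor, among 858 genes, and 5 without it, among 231, and leaving out the 24 h array gave 5 without it, among 231. These fits take the spread from the group without inhibitor alone and as the same for every gene, so the lone array is assumed to vary like that group, and the values without inhibitor are those of the full fit.

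The difference between these groups asks whether the inhibitor changed the response to induction and is free of any dye bias that a probe shows on every array alike. No member passed this test. The mean with inhibitor minus the mean without it was -0.14 for ALDOA (95% interval -0.64 to 0.37), -0.11 for GPI (-0.61 to 0.39), -0.0048 for PGK1 (-0.50 to 0.49), 0.04 for GAPDH (-0.47 to 0.55), 0.04 for ENO1 (-0.66 to 0.74) and 0.06 for LDHA (-0.37 to 0.48). The limma adjusted p was 0.999 for each, and 0% of all genes were called, with 173 at an unadjusted p under 0.05. These intervals reach 0.74 on the log2 scale for ENO1, so the result does not show that the inhibitor statuses were alike. The spread of ratios also differed by status. The median absolute deviation was 0.26 with inhibitor against 0.18 without it at 3 days, and 0.17 against 0.11 at 2 days. After scaling the arrays to equal spread, the differences of GPI, ALDOA and PGK1 turned above 0. Both arrays of 1 group lay beyond both of the other for 0 of the 6 members and for 30.6% of all genes. For the 6 members this was fixed by the days. Each group holds a 2-day and a 3-day array, and all 6 had both 3-day arrays below both 2-day arrays. The groups thus had to overlap, and the count adds nothing about the inhibitor. At matched days the largest gap was that of GPI at 3 days, -0.27, where the inhibitor array was the lower; at 2 days the largest was that of LDHA, 0.16, where the inhibitor array was the higher.

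Days of induction are set against each other next. The 3-day mean minus the 2-day mean, fitted with inhibitor status as a term, was -0.67 for ENO1 (SE 0.12), -0.39 for GAPDH (SE 0.12), -0.39 for ALDOA (SE 0.11), -0.38 for PGK1 (SE 0.12), -0.35 for GPI (SE 0.13) and -0.23 for LDHA (SE 0.12). The limma adjusted p was 0.208 for ENO1, GAPDH, ALDOA and PGK1, 0.238 for GPI and 0.323 for LDHA, so none passed, and 0% of all genes did, with 1 residual degree of freedom and 727 genes at an unadjusted p under 0.05. Both 3-day arrays lay below both 2-day arrays for all 6 genes, against 34.1% of all genes. Beyond 1.5-fold lower on both 3-day arrays were ENO1, GPI, ALDOA and PGK1, against 3.96% of all genes, and 0 of the 6 were so on both 2-day arrays, against 0.947% of all genes. The width of the arrays moved with the day, and also with inhibitor status. After scaling to equal spread the day differences shrank to -0.28 for ENO1, -0.23 for GAPDH and -0.17 for PGK1. Those of LDHA, ALDOA and GPI shrank to -0.14, -0.12 and -0.04. On the inhibitor arrays 3 days also means 24 h in place of 3 h of inhibitor, and these cannot be told apart.

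**Figure D3:**
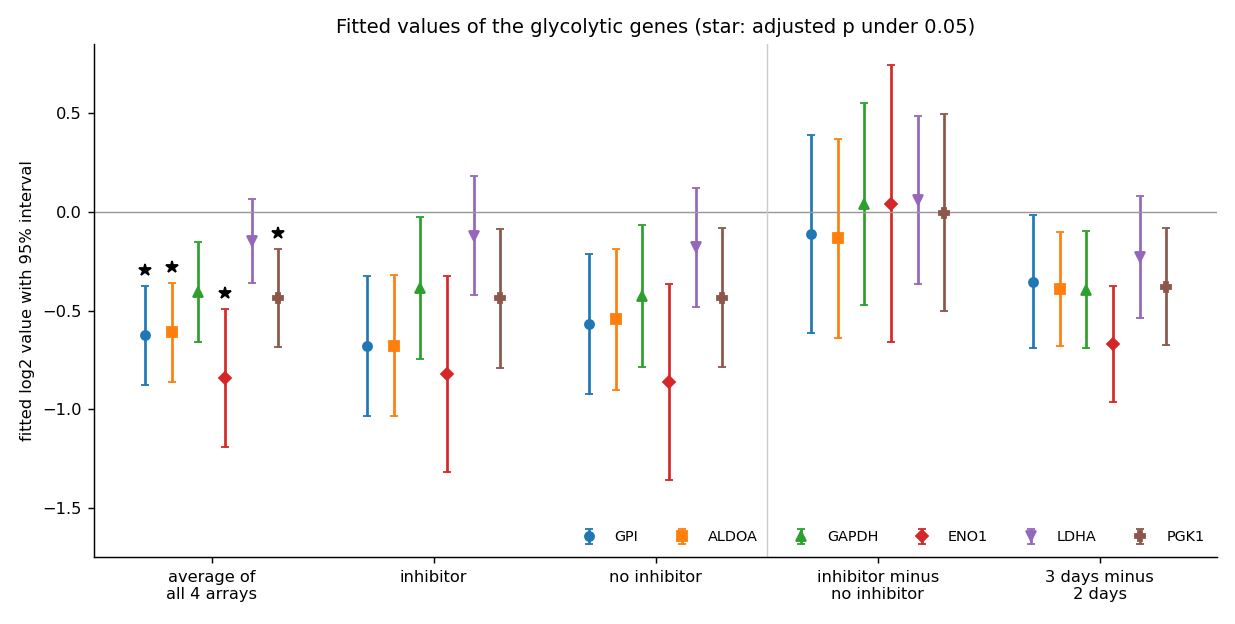
Fitted log2 values with 95% intervals (y axis) for the average of all arrays, each inhibitor status, the inhibitor difference and the day difference (x axis); stars mark adjusted p under 0.05. ENO1, GPI, ALDOA and PGK1 carry stars for the average, and the inhibitor differences of all 6 genes have intervals across 0.

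Probes of a gene mostly had the same sign, and their sizes differed within ENO1, LDHA, GAPDH and PGK1. Of 48 probe values 46 were below 0, and 11 of the 12 probes were below 0 on all 4 arrays. All 12 probes were lower at 3 than at 2 days without inhibitor, and 11 of 12 with it. By gene means, 25.8% of all genes lay below 0 on all 4 arrays. Lower at 3 days at both inhibitor statuses were 43.2% of all genes. Probes of a gene were read on the same 4 arrays, and 4 of the 12 are of ENO1, so these counts are not independent. The 3 lower ENO1 probes had means of -1.09, -0.98 and -0.97 (limma on single probes, adjusted p = 0.00286, 0.00185 and 0.00253), while the remaining probe had -0.33 (adjusted p = 0.0667). The remaining probe read -0.49 at 3 days and -0.21 at 2 days with inhibitor, and -0.52 at 3 days and -0.08 at 2 days without it, the highest of the ENO1 probes on every array. The LDHA probes had means of -0.26 and -0.04 (adjusted p = 0.101 and 0.846). Both GAPDH probes (-0.44 and -0.37, adjusted p = 0.0477 and 0.0333) and both PGK1 probes (-0.49 and -0.39, adjusted p = 0.0222 and 0.0315) were called as single probes, where 13% of all probes were called as lower. In all 9 of the 12 member probes were called in the average, including the GPI and ALDOA probes. With inhibitor 5 member probes of ENO1, GPI and ALDOA were called, against 7.65% of all probes as lower, and without inhibitor 1, of ENO1, against 1.03%. In the day difference no member probe was called, against 0.0147% of all probes as lower. The GAPDH probes differed in the day: 1 had -0.71 at 3 days and -0.04 at 2 days with inhibitor, and the other -0.40 on both. GAPDH, ENO1, LDHA and PGK1 have processed pseudogenes or sister isozymes, and whether a probe also detects their transcripts was not tested.

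The other measured glycolytic enzymes had means on both sides of 0. Of 19 listed, 11 were measured on all arrays, none was called in any comparison, and 6 of the 11 had means below 0. Their median mean was -0.01, as over all genes. Both 3-day arrays lay below both 2-day arrays for 4 of the 11, against 34.1% of all genes. The list includes sister isozymes such as ENO2, ENO3 and ALDOC, and a log ratio does not tell whether they were expressed. The lowest were PFKM, a subunit of the committing phosphofructokinase, at -0.32 (limma adjusted p = 0.0513), PKM, pyruvate kinase, at -0.32 (0.0641), HK2, a hexokinase, at -0.26 (0.118), and PGAM1, the phosphoglycerate mutase, at -0.24 (0.203). TPI1, which interconverts the triose phosphates next to ALDOA, stood at -0.01 and the sister enolases at 0.02 for ENO2 and 0.21 for ENO3. The aldolase C gene ALDOC stood at 0.0040. TPI1, ENO2, ENO3 and ALDOC were chosen for mention after their values were seen. Of 5 measured genes of transport and regulation none was called: SLC2A1, the main glucose transporter gene, had a mean of -0.27 (0.0639) and PFKFB3, whose product activates phosphofructokinase, 0.23 (0.0913). Of the factors whose cores are capitalised in the ENO1, LDHA and PGK1 windows where present, MYC had log2 ratios of -0.55 at 3 days and -0.49 at 2 days with inhibitor, and of -0.37 at 3 days and 0.07 at 2 days without it, a mean of -0.33 that did not pass (0.0666). HIF1A had a mean of -0.03 (0.859).

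Enzymes beyond pyruvate had means mostly below 0. The list of pyruvate oxidation and the tricarboxylic acid cycle also holds MDH1, a cytosolic enzyme outside the cycle. Of its 11 measured genes 10 had means below 0, with a median of -0.32, and 3 fell. These were MDH1, the cytosolic malate dehydrogenase, at -0.53 (SE 0.11, limma adjusted p = 0.0302), IDH3G, a subunit of isocitrate dehydrogenase, at -0.40 (SE 0.08, 0.0301) and PDHB, of pyruvate dehydrogenase, at -0.37 (SE 0.09, 0.0481). IDH3A (-0.44, 0.0514) and MDH2 (-0.42, 0.0504) did not pass. Both 3-day arrays lay below both 2-day arrays for 11 of the 11, against 34.1% of all genes. In the pentose phosphate pathway RPE, the ribulose phosphate epimerase, fell, with a mean of -0.56 (SE 0.11, 0.0281), and TKT, PGD and RPIA did not pass (0.18, -0.14 and 0.12). RPE was also the 1 gene of these lists called with inhibitor (-0.73, limma adjusted p = 0.0443).

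Some other genes used as references were also lower. Of 6 measured housekeeping genes outside glycolysis, of 12 listed, 2 fell, ACTB, the beta-actin gene, with a mean of -0.71 (SE 0.14, limma adjusted p = 0.0284), and YWHAZ, which encodes a signalling adapter, with -0.52 (SE 0.11, 0.0337). TUBB had -0.29, TBP -0.16, HPRT1 0.02 and B2M 0.09. HPRT1 and B2M are named after their values were seen. The list's medians were -0.39 at 3 days and -0.13 at 2 days with inhibitor. Without it they were -0.36 at 3 days and -0.02 at 2 days. The 3-day medians were thus below the 2-day medians, as for the 6 glycolytic genes. All 6 housekeeping genes had both 3-day arrays below both 2-day arrays, as did all 6 members and 34.1% of all genes. Relative to these housekeeping genes ENO1 kept a mean of -0.62, GPI -0.40, ALDOA -0.39, PGK1 -0.21 and GAPDH -0.18, and LDHA stood at 0.08. The limma adjusted p then ran from 0.0962 for ENO1 to 0.538 for LDHA. The calls of MDH1, IDH3G, PDHB, RPE, ACTB and YWHAZ in the average were also lost when either array without inhibitor was left out and after housekeeping centring, and that of PDHB also without the 24 h array (limma adjusted p = 0.0517), after median centring (0.0583) and with looser probe filtering (0.0589). ACTB and YWHAZ belong to the 6 housekeeping genes that set the median subtracted in that centring. Their lost calls after it are thus no separate check. What the lower ratios of some housekeeping and some glycolytic genes rest on was not tested.

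**Figure D4:**
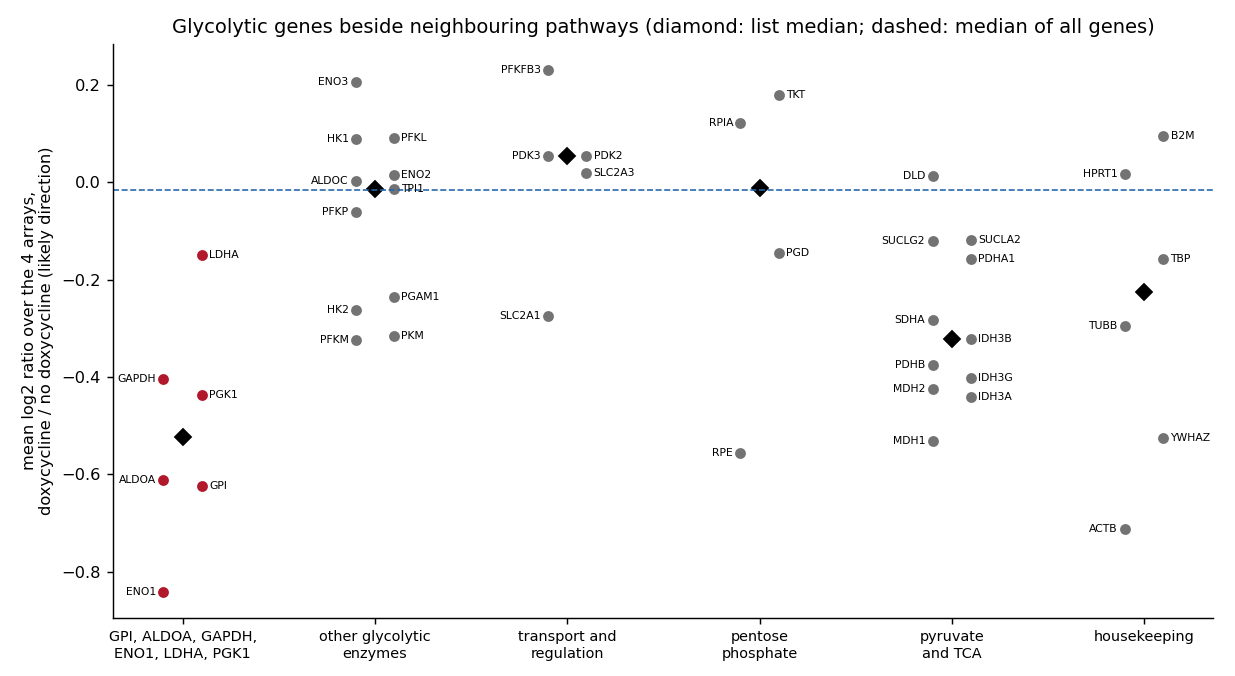
Mean log2 ratio over the 4 arrays (y axis) of each measured gene in the 6 lists (x axis); diamonds are list medians and the dashed line is the median of all genes. The 6 glycolytic genes have a median of -0.52 and the 11 other glycolytic enzymes -0.01. The 6 genes and the lists were chosen with earlier results of these data known, so the gap is no test of a difference.

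The 5 genes nearest the members' mean profile over the 4 arrays (-0.75 at 3 days and -0.29 at 2 days with inhibitor, -0.68 at 3 days and -0.33 at 2 days without it) were MDH1, SRPK1, a kinase of splicing factors, MRPL11, a mitochondrial ribosomal protein, YWHAZ and OTUB1, a deubiquitinase. Their root mean square differences from it were 0.04 for MDH1, SRPK1, MRPL11 and YWHAZ and 0.06 for OTUB1, on the log2 scale over 4 arrays. The members themselves lay between 0.08 for PGK1 and 0.37 for LDHA, and 789 other genes lay nearer than LDHA. SRPK1 had 3 probes and the other 4 genes had 1 each.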

How the data were processed

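Deposited values were used as given: per the file, 1 log ratio per probe and array, read as log2 since a log10 base would make their span of 13.1 units as many orders of magnitude. The authors' deposited log2 ratios had array medians between -0.007 and 0, so they appear centred; the base, the direction, the background correction and the normalization stay unknown, as the sources used here do not give them. Dyes and groups follow the labels. Probes took the symbol of the platform annotation, updated through RefSeq gene identifiers (10128 of 10169 probes with 1 symbol matched). Probes with a value on all 4 arrays were averaged per gene.

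One model with a mean for each inhibitor status (2 arrays each) was fitted with limma 3.58.1 in R 4.3.3 (lmFit, eBayes; 2 residual degrees of freedom, prior 4.98). The uninduced RNA is the other channel of each array, and no uninduced sample was set against another, so the control's own spread was not measured apart from that of the ratios. The day difference used an additive model of inhibitor status and day. All tests are two-sided, and adjusted p-values are Benjamini-Hochberg over 3589 genes, called under 0.05. Single probes were fitted apart, with adjustment over 6796 probes and a prior of 8.74 in the model of inhibitor status. Their adjusted p-values are thus not on the same footing as those of genes. Whether the arrays stem from separate cultures is not in the labels, so a p-value here reflects the spread of 4 arrays, which may be technical. With no intensities, signal over background is unknown, and precision is set by having 4 arrays.

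The members and gene lists were chosen with earlier results of these data known. Named genes are the members, called genes and up to 4 genes per list by size of the mean, the known regulators, the hairpin target and the 5 nearest profiles. Alternatives were other centrings and scaling, looser probe filtering, probe medians, single probes, the day as a block, a robust prior, a threshold of 0.10 and each array left out. The fit was also run on simulated data, with independent noise drawn from its own prior and changes larger than the members' means. Such data meet the assumptions of the fit by construction, so that run does not check the calls made here.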

Additional observations from a re-analysis of the deposited data

How the results depend on the processing

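Values of named genes changed sign 14 times under alternatives that use all arrays. The cause of each change was not tested, apart from that of TBP given below. A threshold of 0.10 calls more by construction, and a leave-out uses fewer arrays. Median centring gave 109 genes called with inhibitor and turned HIF1A to 0.0018 in the average. Centring on housekeeping genes, which raises every gene by the size of a median between -0.39 and -0.02 on an array, gave 6 genes and 0 members called in the average with a member median of -0.30, 0 genes with inhibitor, and 590 genes and a member median of -0.087 in the day difference. It turned LDHA to 0.076 in the average, 0.14 with inhibitor, 0.011 without it and 0.070 in the day difference, PGD to 0.081, HIF1A to 0.20 and TBP to 0.068 in the average, and PGK1 to 0.065 in the inhibitor difference. The turn of TBP follows from the centring, since TBP and TUBB are the middle housekeeping genes on every array and their midpoint is subtracted. Equal spread gave 638 genes called in the average, 150 genes and 3 members with inhibitor, 191 genes and 4 members without it, and 3 genes and a member median of -0.16 in the day difference. It turned HIF1A to 0.0057 in the average and, in the inhibitor difference, GPI to 0.16, ALDOA to 0.10 and PGK1 to 0.17. Keeping probes measured on only 1 array of a group as well gave 4 genes in the inhibitor difference, 5 in the day difference and HIF1A at 0.0070 in the average. Probe medians gave 221 genes and 2 members called with inhibitor, GPI (limma adjusted p = 0.0467) and ALDOA (0.0473). The labels give no replicate numbers, but with the day as a block, which pairs the arrays of the same day, 1121 genes were called in the average, 908 genes and 5 members with inhibitor, and 56 genes and 1 member without it. A threshold of 0.10 called 836 genes in the average, 590 genes and 3 members with inhibitor, and 6 genes without it. By single probes 3 members had a called probe with inhibitor and 1 without it.

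With each array left out in turn, between 12 and 1074 genes and between 0 and 5 members were called in the average, 34 to 858 genes and 0 to 5 members with inhibitor, 0 to 231 genes and 0 to 5 members without it, and 0 to 119 genes in the inhibitor difference. The day difference then has no residual degree of freedom and no test. PDK3 ranged from -0.00025 to 0.11 and HIF1A from -0.11 to 0.056 in the average, and LDHA from -0.28 to 0.044 with inhibitor. In the inhibitor difference the member median ranged from -0.27 to 0.21, ALDOA from -0.34 to 0.068, GAPDH from -0.19 to 0.27, ENO1 from -0.32 to 0.40, LDHA from -0.10 to 0.22, GPI from -0.37 to 0.15 and PGK1 from -0.22 to 0.22, so its sign was not settled for any of the 6. Fits without an inhibitor array take 1 spread for all genes from the group without inhibitor.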
